A study of Zea mays with 16 samples.

Results

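The high and steady transcripts of maize roots were the probe sets that gave a strong signal on every array of a waterlogging experiment and stayed close to that signal throughout. They were chosen from the measured values by 2 limits, a log2 signal of 12 or more on each of 16 arrays and a difference between the highest and the lowest array (the range) of at most 1 log2 unit, which is a 2-fold difference. Control probe sets with IDs starting in AFFX were left out of the choice. Of 17621 other probe sets in a table of 17734, 287 met both limits (1.63%). Because the levels and ranges of all 16 arrays chose these 287, the values below are a description and no test of steadiness was made on them.

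The arrays were Affymetrix Maize Genome Arrays hybridised with RNA from roots of 2 maize inbred lines grown in pots, HKI1105, which the labels call tolerant of waterlogging, and V-372, which they call susceptible. Each line gave 4 groups of 2 arrays: untreated control roots at 28 days after sowing, moderate stress at 32 days, severe stress at 35 days, and recovery at 42 days. According to the labels pots were sealed on day 29 and kept under 5 cm of standing water for 7 days before they were drained. The study's methods instead place the removal of the seal on the day of the recovery sample, so the time that the recovery roots had spent in drained soil is not settled. No untreated roots of the later days were analysed here, so stage and plant age cannot be told apart. Replicate arrays were biological according to the labels and technical according to the study's methods, so a p-value measures only the spread between these arrays.

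A signal that stays high in all conditions usually belongs to genes that every growing cell needs. Ribosomal proteins and translation factors make protein, tubulin and actin-binding proteins keep the cytoskeleton in place, and chaperones, ubiquitin enzymes and the enzymes of central metabolism keep the cell running. Flooded maize roots lose oxygen, and as background they are known to keep making a small set of anaerobic proteins, most of them enzymes of sucrose breakdown, glycolysis and fermentation, while the translation of many other messages slows. On this array most probes lie near the 3′ end of a transcript, and an ID ending in _a, _s or _x marks probes that are shared by transcripts of 1 gene, shared between genes, or partly similar to other sequences.

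The whole table ran from 2.01 to 15.56 with a median of 7.10 (log2 signal), and 25.6% of its values lay within 0.02 of the lowest value. The median of all non-AFFX probe sets was 6.91 and 6.98 on the 2 control arrays of HKI1105 and between 7.08 and 7.18 on the other 14 arrays. The 2 arrays of a group correlated at 0.996 to 0.999 across probe sets. The poly-A spike probe sets, which detect RNA added at labelling, stood 2.28 log2 units above their own means in the HKI1105 control (median of 36) and between −0.97 and 0.12 in the other 7 groups. The hybridisation spike probe sets stood 1.12 above their own means in the HKI1105 control (median of 27) and between −0.36 and 0.08 in the other 7 groups. The 18 probe sets of root markers had group medians of 2.55 to 6.85, and 6 to 10 of them were near the lowest value of the table in each group. The 16 probe sets of leaf markers (light harvesting and C4 cycle genes) had group medians of 4.25 in the V-372 control to 11.8 in V-372 severe stress. The part of the spikes, the marker levels and the low HKI1105 control medians in the values below was not tested.

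At 12 or more on every array there were 413 probe sets (2.34%), so 69.5% of these also met the range limit and 126 did not. The 287 had mean levels of 12.22 to 14.95, with a median of 13.30. Their ranges ran from 0.17 to 0.99 with a median of 0.64 and quartiles of 0.51 and 0.79. A range under 0.3 was found for 10 of them, under 0.5 for 70 and over 0.8 for 63. The 126 that were high but not steady had a median range of 1.34 and reached 2.47, with 10 of them over 2. Levels of different probe sets also depend on their probes, so an order of levels is an order of signals and not of transcript amounts.

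**Figure D1:**
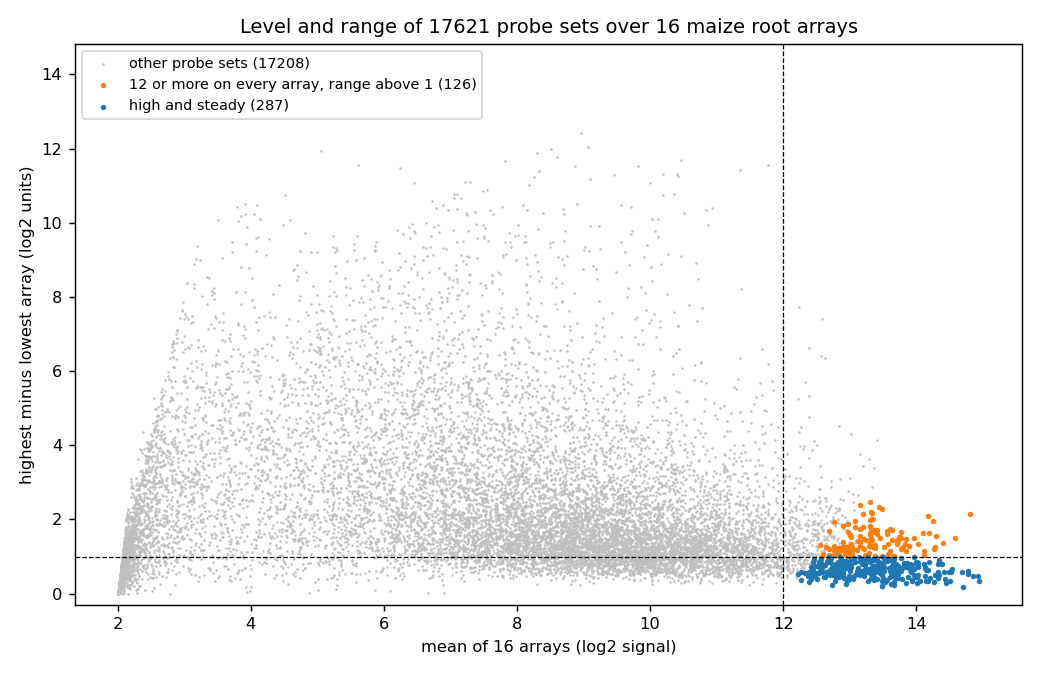
Range over the 16 arrays (y, log2 units) against the mean log2 signal (x) of 17621 probe sets, 1 point each, with the limits of 12 and 1 as dashed lines. The 287 high and steady probe sets (blue) lie at means of 12.22 to 14.95, the 126 that were high but not steady (orange) reach a range of 2.47, and 17208 others are grey. The level limit applies to the lowest array and not to the mean, so grey points also lie right of the vertical line.

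Steadiness was more common the higher the signal. A range of at most 1 was found for 6.37% of the probe sets with a mean between 4 and 6, for 19.0% between 8 and 10, for 36.5% between 12 and 13, for 58.1% between 13 and 14 and for 76.8% of the 56 probe sets between 14 and 15. Below a mean of 4 the share was 72.6%, where most arrays read near the lowest value of the table. IDs ending in _a, _s or _x made up 40.4% of the 287 (116 probe sets), 34.1% of the 126 high but not steady ones and 12.6% of all non-AFFX probe sets. That share also went up with level, from 9.08% below a mean of 4 to 60.7% between 14 and 15. The part of signal level and of shared probes in the steadiness was not tested.

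The probe sets nearest to the limits showed how finely they cut. Just inside the range limit were Zm.4980.1.A1_at, Zm.17836.1.A1_x_at and Zm.14147.1.A1_at with ranges of 0.993, 0.993 and 0.986, and just outside it Zm.3077.1.A1_a_at, Zm.6804.1.A1_at and Zm.4985.1.A1_at with 1.009, 1.013 and 1.017. Just inside the level limit Zm.7080.3.A1_at, Zm.12750.2.A1_s_at and Zm.878.2.S1_at had lowest arrays of 12.004, 12.005 and 12.011, and just outside it Zm.7093.1.S1_at, Zm.2052.1.S1_at and Zm.7025.1.A1_at had 11.9998, 11.986 and 11.974. In 4 of these 6 level cases the lowest group was the HKI1105 control.

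The annotation used here gave a single gene to 1452 non-AFFX probe sets, and 50 of them were high and steady (3.44%). These 50 stood for 38 genes, and the other 237 of the 287 had no gene name. Named and unnamed probe sets had median levels of 13.48 and 13.27 and median ranges of 0.59 and 0.66. By the number at the start of their IDs, which marks a cluster of expressed sequences, 279 of the 287 belonged to 199 clusters. These clusters had 711 probe sets in all, so 432 of their probe sets were not high and steady. The cluster Zm.3892, of elongation factor 1-alpha sequences, had 10 high and steady probe sets of 18. Among the unnamed ones, Zm.3157.3.A1_at had the smallest range of all (0.17, from 14.61 to 14.78), Zm.12132.3.S1_a_at read 14.62 to 15.09, and RPTR-Zm-AF298789-2_s_at, with an ID of the reporter type, read 14.53 to 15.16. It was the only 1 of 66 probe sets of that type to be high and steady. These 3 were singled out after their values were seen.

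Genes of the translation machinery made up 18 of the 50 named probe sets. Of the 26 named probe sets of cytosolic ribosomal proteins 8 were high and steady (30.8%), and of the 26 of translation factors 10 were (38.5%), beside 3.44% over all named probe sets. The members were chosen for level and range, so these shares describe the selection and were not tested. The 10 of translation factors had a median range of 0.34 and 7 were under 0.5, and the 8 of ribosomal proteins had a median range of 0.47 and 4 were under 0.5.

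Elongation factor 1-alpha, which brings aminoacyl-tRNA to the ribosome, supplied the steadiest named signals. The probe set Zm.3892.6.A1_x_at of elfa3 had a range of 0.20. In HKI1105 it read 13.53 and 13.55 in the control, 13.51 and 13.50 at moderate stress, 13.45 and 13.51 at severe stress, and 13.55 and 13.53 at recovery. In V-372 it read 13.59 and 13.56, 13.48 and 13.44, 13.46 and 13.39, and 13.40 and 13.41 at the same stages. The V-372 recovery arrays were low and the V-372 control arrays high, and values of neighbouring groups overlapped. A further elfa3 probe set, Zm.3892.11.A1_x_at, ran from 13.38 in HKI1105 severe stress to 13.60 in the V-372 control (range 0.22), Zm.3892.2.A1_x_at had a range of 0.34, and Zm.3892.2.A1_a_at, at a lower mean of 12.33, had a range of 0.55. The gene elfa5 (Zm.3157.1.A1_at) ran from 12.58 to 12.91 (range 0.33), with its lowest group in V-372 severe stress. EF1A (Zm.14419.1.A1_s_at) ran from 13.75 on 1 HKI1105 recovery array to 14.20 in the V-372 control, and the other HKI1105 recovery array read 14.02.

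The initiation factor eIF4A is an RNA helicase that opens the 5′ end of messages for the ribosome. Both probe sets of tif-4A3 were high and steady, with ranges of 0.29 (Zm.3015.1.S1_a_at, 13.67 to 13.96) and 0.34 (Zm.3015.2.S1_x_at, 13.07 to 13.41). Their lowest group was V-372 severe stress, where the arrays read 13.67 and 13.67 in the first and 13.07 and 13.08 in the second. The gene eIF-4A (Zm.437.1.A1_a_at) was also lowest there, at 12.84 and 12.93, and highest at V-372 recovery, at 13.41 and 13.41. The factor eif5a (Zm.1314.1.A1_at), which helps stalled ribosomes move on, had the widest range of the 10, 0.64. It read 14.49 and 14.54 in the HKI1105 control, above the other 14 arrays (13.90 to 14.30), and was lowest at HKI1105 moderate stress at 13.90 and 13.97.

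Among the ribosomal proteins the stalk proteins, acidic proteins that contact the translation factors, included the steadiest. The probe set Zm.348.2.A1_a_at of rpp3 ran from 13.85 in the HKI1105 control to 14.14 in the V-372 control (range 0.29), and Zm.348.1.A1_x_at of the same gene from 12.73 to 13.13. The stalk gene rpp2a-4 was less even, at 13.46 to 14.00, with both V-372 control arrays (13.96 and 14.00) above the other arrays. The small subunit gene rps27 ran from 14.00 to 14.34 and rps6 from 13.75 to 14.11. The gene rps6-2 (Zm.516.1.A1_at) read 12.84 and 12.85 in the HKI1105 control and 13.17 to 13.42 on the other 14 arrays, so the control arrays stood apart. The large subunit genes RPL19 and RPL27A had ranges of 0.57 and 0.59, RPL19 with its lowest group in the HKI1105 control (12.44 and 12.39) and RPL27A in V-372 recovery (12.34 and 12.30).

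The 6 probe sets of RNA and chromatin genes had ranges of 0.31 to 0.63. The gene grp1, a glycine-rich RNA-binding protein, had the highest mean of all 287 (14.95) and a range of 0.33. It read 15.07 and 15.06 in the HKI1105 control and 14.74 and 14.88 at HKI1105 moderate stress, its lowest group. A probe set of symbol GRP ran from 14.07 in HKI1105 severe stress to 14.38 (range 0.31). The histone deacetylase gene hdt103 had 2 steady probe sets, both lowest at HKI1105 recovery, where they read 12.996 and 12.994 in Zm.856.1.A1_a_at and 13.09 and 12.99 in Zm.856.2.A1_a_at. The gene MNB1b, of a DNA-binding protein of the high mobility group, was lowest in the HKI1105 control (13.11 and 13.21) and highest at V-372 recovery (13.74 and 13.61). The chromatin gene nfc102 was lowest in the HKI1105 control (12.43 and 12.36) and highest in V-372 severe stress (12.94 and 12.88).

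Protein folding and turnover had the widest ranges of the groups by role, with a median of 0.88 over 7 probe sets, which belonged to 4 genes. Of the 7, 6 were highest at V-372 recovery, 5 of them from hsp70-5 and ubc7, beside 53 of all 287. The Hsp70 chaperone gene hsp70-5 had 3 high and steady probe sets with ranges of 0.79, 0.90 and 0.97. In Zm.3081.2.A1_x_at, HKI1105 arrays read 13.09 and 13.02 in the control, 12.61 and 12.78 at moderate stress, 12.93 and 12.90 at severe stress, and 13.02 and 13.08 at recovery. The V-372 arrays read 13.11 and 13.17, 13.27 and 13.27, 12.89 and 12.84, and 13.58 and 13.54. The V-372 recovery arrays lay above the other 14 in each of the 3 probe sets, as they did in both high and steady probe sets of ubc7, a ubiquitin-conjugating enzyme by its symbol. In Zm.16785.1.A1_x_at of ubc7 the V-372 recovery arrays read 14.00 and 14.09 and the highest of the others 13.78. In Zm.16785.1.A1_a_at they read 14.06 and 14.02, but the HKI1105 control arrays were close at 13.96 and 13.95. Calnexin, a folding lectin of the endoplasmic reticulum (CNX, Zm.2862.1.A1_at), went the other way, with 13.50 and 13.64 in the V-372 control and 12.82 and 12.74 at V-372 recovery. The gene hsp70-4 was the narrowest of the 7, at 12.69 to 13.12.

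**Figure D2:**
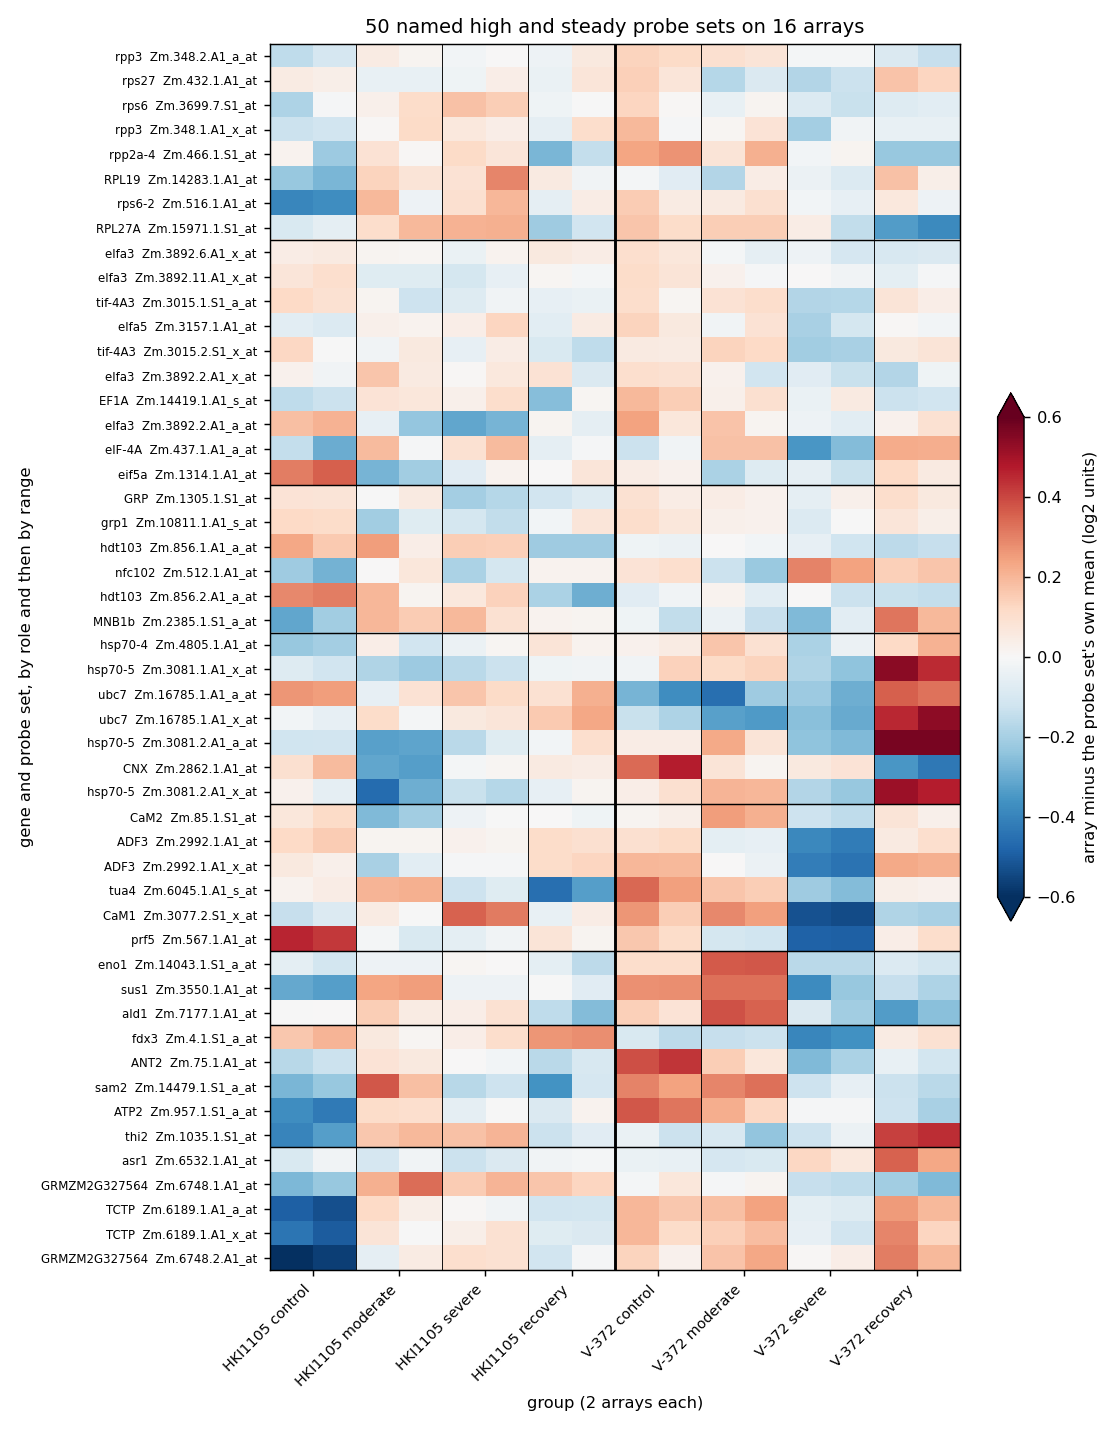
Each of the 50 named high and steady probe sets (rows, by role and then by range) on the 16 arrays (columns, 2 for each group), coloured by the array's log2 signal minus the mean of that probe set, from −0.6 (blue) to 0.6 (red). Translation rows are pale, with ranges down to 0.20, and the deepest colours lie in the HKI1105 control, in V-372 severe stress and at V-372 recovery, where hsp70-5 read up to 13.87.

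Genes of the cytoskeleton and of the calcium sensor calmodulin gave 6 probe sets. Of these, 4 were lowest in V-372 severe stress, 2 of them from ADF3, beside 81 of all 287. Actin depolymerising factor ADF3, which severs actin filaments, read 14.13 and 14.10 there in Zm.2992.1.A1_at against 14.46 to 14.67 on the other 14 arrays. Its second high and steady probe set read 13.55 and 13.52 against 13.77 to 14.19. The profilin gene prf5, whose product binds actin monomers, had a range of 0.94. It read 13.68 and 13.65 in the HKI1105 control, 13.39 and 13.33 in the V-372 control, and 12.74 and 12.74 in V-372 severe stress, and neither the highest nor the lowest pair overlapped another group. The calmodulin gene CaM1 (Zm.3077.2.S1_x_at) read 13.02 and 13.08, 13.21 and 13.16, 13.51 and 13.47, and 13.11 and 13.20 in HKI1105 from control to recovery. In V-372 it read 13.42 and 13.31, 13.45 and 13.40, 12.63 and 12.62, and 12.98 and 12.96. Its severe stress arrays were thus the highest of all in HKI1105 and the lowest of all in V-372. The second calmodulin gene, CaM2, ran from 12.44 at HKI1105 moderate stress to 12.96 at V-372 moderate stress. Alpha-tubulin tua4, a subunit of microtubules, read 13.67 and 13.79 at HKI1105 recovery, its lowest group, and up to 14.46 in the V-372 control. Its other probe set, Zm.6045.1.A1_a_at, had a range of 1.21 and was lowest in the HKI1105 control (group mean 13.61). Of 21 named tubulin probe sets 1 was high and steady (4.76%, beside 3.44% over all named probe sets).

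Carbon metabolism added 3 genes, all also on the list of anaerobic proteins. That list had 3 high and steady probe sets of 28 (10.7%), beside 3.44% over all named probe sets. All 3 had their highest group at V-372 moderate stress, beside 32 of all 287 high and steady probe sets. Whether the 3 differ in this from the 287 was not tested. Enolase eno1, a glycolytic enzyme, read 14.73 and 14.67 in the HKI1105 control, 14.75 and 14.75 at moderate stress, 14.79 and 14.79 at severe stress, and 14.72 and 14.63 at recovery. In V-372 it read 14.89 and 14.89, 15.15 and 15.16, 14.62 and 14.62, and 14.70 and 14.68. The moderate stress pair of V-372 stood above the other 14 arrays, and the HKI1105 arrays stayed within 14.63 to 14.79. Sucrose synthase sus1, which splits sucrose without spending ATP, read 13.16 and 13.14, 13.71 and 13.72, 13.44 and 13.44, and 13.47 and 13.40 in HKI1105. In V-372 it read 13.74 and 13.75, 13.80 and 13.80, 13.09 and 13.25, and 13.33 and 13.29, so its low groups were the HKI1105 control and V-372 severe stress. Aldolase ald1 was highest at V-372 moderate stress (14.21 and 14.18) and lowest at V-372 recovery (13.49 and 13.58).

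Mitochondrial and other metabolic genes gave 5 probe sets with ranges of 0.67 to 0.84. ATP2, the beta subunit of the mitochondrial ATP synthase, read 12.86 and 12.81 in the HKI1105 control and 13.61 and 13.56 in the V-372 control, the lowest and the highest groups, with the other 12 arrays between them. ANT2, the carrier that exchanges ADP for ATP across the inner mitochondrial membrane, read 13.30 and 13.35 in the V-372 control against at most 13.07 on the other arrays. S-adenosylmethionine synthetase sam2, which makes the methyl donor and the precursor of ethylene, was highest at moderate stress of V-372 (14.02 and 14.06). HKI1105 moderate stress (14.10 and 13.91) and the V-372 control (14.03 and 13.97) overlapped it. Its lowest group mean was in the HKI1105 control (13.46 and 13.50), but HKI1105 recovery stood only 0.02 ± 0.08 (SE) above it. The lowest single array of sam2, at 13.37, was in another group. The thiamine synthesis gene thi2 read 13.61 and 13.68 in the HKI1105 control and 14.42 and 14.45 at V-372 recovery, both apart from the other groups. Ferredoxin fdx3, an electron carrier of plastids, was lowest in V-372 severe stress (14.15 and 14.18) and highest at HKI1105 recovery (14.80 and 14.82).

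Among the rest, TCTP, the translationally controlled tumor protein, read 13.45 and 13.41 in the HKI1105 control in Zm.6189.1.A1_a_at against 13.82 to 14.19 on the other 14 arrays. Its second high and steady probe set read 13.47 and 13.41 against 13.80 to 14.21. GRMZM2G327564, for which the tables give no function, read 12.73 and 12.78 in the HKI1105 control in Zm.6748.2.A1_at against 13.23 to 13.65 elsewhere. The gene asr1, of the family induced by abscisic acid, stress and ripening, had a mean of 14.85 and stayed within 14.72 to 14.97 except at V-372 recovery, where it read 15.20 and 15.08.

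Some lists had no high and steady probe set, beside 3.44% over all named probe sets. Lists of this size may hold none at that share, so nothing is read from these counts. None was found among 57 named probe sets on the list of redox and metal-binding genes, 36 of aquaporins, 12 of small GTPases, 11 of histones and 9 of nitrogen metabolism, nor among the root and leaf markers. Lists were matched by symbol, and the redox list left out the ferredoxin fdx3, which was high and steady. Of 38 named probe sets on the list of genes often used as references, 4 were high and steady (10.5%), namely EF1A, tua4 and both probe sets of ubc7 described above. This list left out the high and steady probe sets of elfa3, also elongation factor 1-alpha, so its share and its median range do not cover them. The other reference probe sets included GAPC2 with a range of 0.57 below the level limit (11.11 to 11.68), gpc4 with a range of 5.27, and tub5 (Zm.4718.1.S1_at) with 12.18 to 14.33. The median range over the 38 was 1.94, beside 1.61 over all named probe sets. These medians include probe sets with little signal, and below a mean of 4 the median range of all non-AFFX probe sets was 0.04. A range of at most 1 below the level limit was found for 418 of the 1452 named probe sets and for 5 of the 38.

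**Figure D3:**
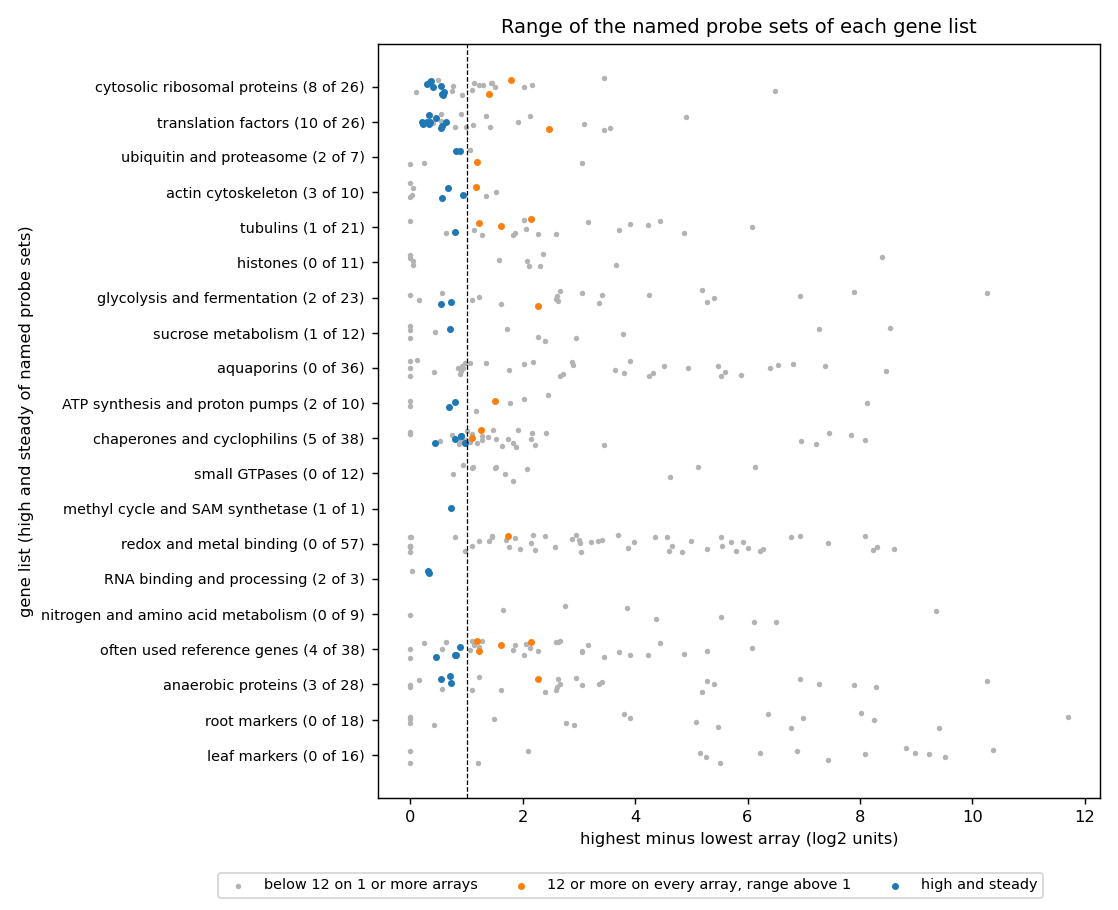
Range over the 16 arrays (x, log2 units) of the named probe sets of 20 gene lists (rows), 1 point for each probe set, shifted up or down at random within its row, with the limit of 1 as a dashed line. Blue points are high and steady (10 of 26 for translation factors and 8 of 26 for cytosolic ribosomal proteins), orange points were at 12 or more on every array with a range above 1, and grey points fell below 12 on 1 or more arrays. A gene may stand on more than 1 list.

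Genes with a high and steady probe set often had others that were not. Of the 38 genes 19 had more than 1 probe set, and in 17 of these at least 1 probe set was not high and steady. Those 33 probe sets included 9 with a mean below 4, and 24 with a mean of 4 or more. Of the 24, 21 had a range above the limit of 1, which by itself kept them out of the 287. In 13 of the 24 the lowest group was also the lowest group of a high and steady probe set of the gene. Of the 287, 32.8% were lowest in the HKI1105 control and 28.2% in V-372 severe stress, so some matches need no link within a gene. The share to expect was not worked out, and nothing is read from the 13. The examples below were chosen after their values were seen.

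For eno1 the second probe set, Zm.14043.3.S1_a_at, ran from 9.70 to 13.05 (range 3.35), with group means of 9.85 in the HKI1105 control and 12.98 at V-372 moderate stress. The high and steady one had its highest group mean, 15.16, at V-372 moderate stress too, at a range of 0.54. For asr1 the second probe set (Zm.6532.1.A1_a_at) ran from 9.78 to 13.43, with group means of 9.87 in the HKI1105 control and 13.35 at V-372 recovery. For fdx3 the second probe set (Zm.4.1.S1_at) ran from 10.50 to 13.02 and was lowest in V-372 severe stress, as was the steady one. Each of these 3 pairs shared a highest or a lowest group. For EF1A the probe set Zm.17271.7.A1_x_at ran from 8.87 to 12.32, with its highest group mean, 12.23, at HKI1105 recovery, where the high and steady one had a group mean of 13.88 within its 13.87 to 14.18. For TCTP, Zm.871.2.A1_a_at ran from 6.85 to 11.31 and was low in the HKI1105 control and at HKI1105 recovery (means 7.13 and 7.08). Whether probe sets of 1 gene differed through their position, their level or related genes was not tested.

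The maize control probe sets, which lie at the 5′ end, the middle and the 3′ end of a few genes, gave a comparison along single transcripts. They were left out of the 287. The 3′ sets of cyclophilin (14.10 to 14.40), GAPDH (AFFX-Zm_Gapdh_3_s_at, 14.31 to 14.85) and ubiquitin (13.60 to 13.99) met both limits. Their ranges were 0.30, 0.55 and 0.39. The 5′ sets paired with these were lower and wider, with ranges of 2.54, 2.97 and 2.25, and so were the middle sets, with 1.48, 2.61 and 1.94. The 3′ signal exceeded the 5′ signal of cyclophilin by 2.88 log2 units at V-372 recovery and by 4.81 at HKI1105 moderate stress (group means), the smallest and the largest of the 8 groups. For GAPDH the excess ran from 6.91 at V-372 recovery to 9.11 in the V-372 control, and for ubiquitin from 4.09 at V-372 recovery to 5.70 in V-372 severe stress. The excess of the 3′ signal was smallest at V-372 recovery in all 3 genes. Other 3′ sets did not meet both limits. That of an elongation factor control, ef1a, ran from 11.44 to 13.15 with its lowest group in the HKI1105 control. An actin 3′ set, AFFX-Zm-actin-3_a_at, ran from 9.32 to 12.49 (range 3.16). Further 3′ sets of GAPDH (AFFX-Zm-gapdh-3_at) and actin (AFFX-Zm_Actin_3_at) read 2.01 on every array. The 18S ribosomal RNA set ran from 10.34 to 13.85. The part of the 3′ to 5′ difference in the ranges of the 287 was not tested.

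**Figure D4:**
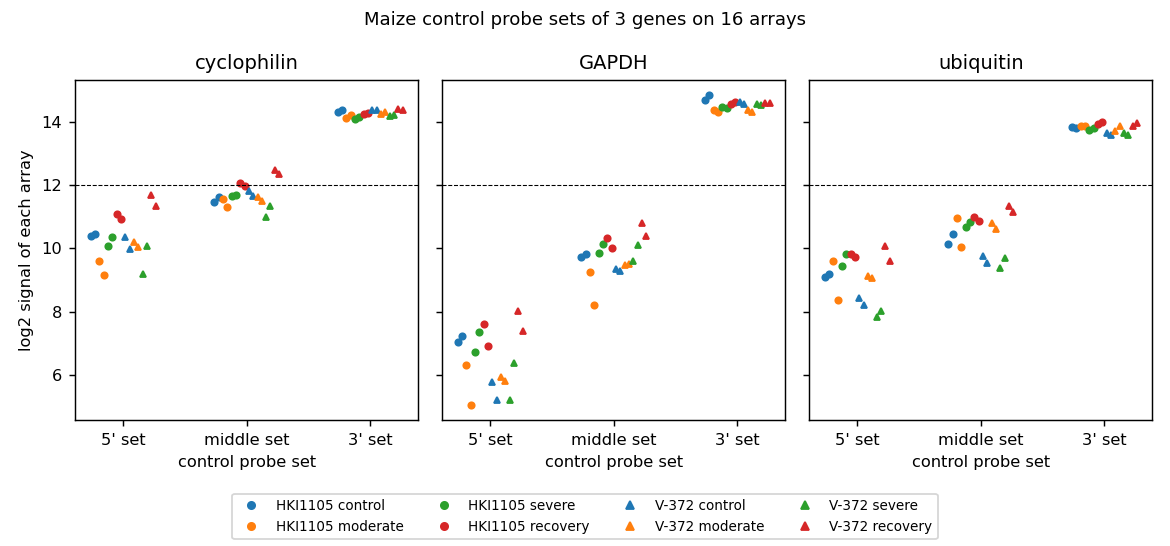
Log2 signal (y) of the 5′, middle and 3′ control probe sets (x) of cyclophilin, GAPDH and ubiquitin, 1 point for each of 16 arrays (circles HKI1105, triangles V-372, colours for the stage), with the level limit of 12 dashed. The 3′ sets shown lie in narrow bands (14.10 to 14.40 for cyclophilin) and the 5′ sets shown spread over 2.25 to 2.97 log2 units.

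The median SD of the 287 was 0.038 between the 2 arrays of a group and 0.19 between the 8 group means. The arrays of a group may be technical replicates of 1 RNA, so nothing is read from the difference between these SDs. The lowest group mean was in the HKI1105 control for 94 probe sets (32.8%), in V-372 severe stress for 81 (28.2%), in V-372 recovery for 38, and in 10 to 22 in each of the other 5 groups. The highest group mean was in the V-372 control for 69, at V-372 recovery for 53, in HKI1105 severe stress for 52 and in the HKI1105 control for 42. Of the 126 that failed the range limit, 66 (52.4%) were lowest in the HKI1105 control and 22 (17.5%) in V-372 severe stress. The median deviation of the 287 from their own means was −0.08 in the HKI1105 control, −0.09 in V-372 severe stress and 0.09 in the V-372 control, and closer to 0 in the other 5 groups. Without the 2 HKI1105 control arrays 415 probe sets met both limits, and without the 2 V-372 severe stress arrays 324 did.

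**Figure D5:**
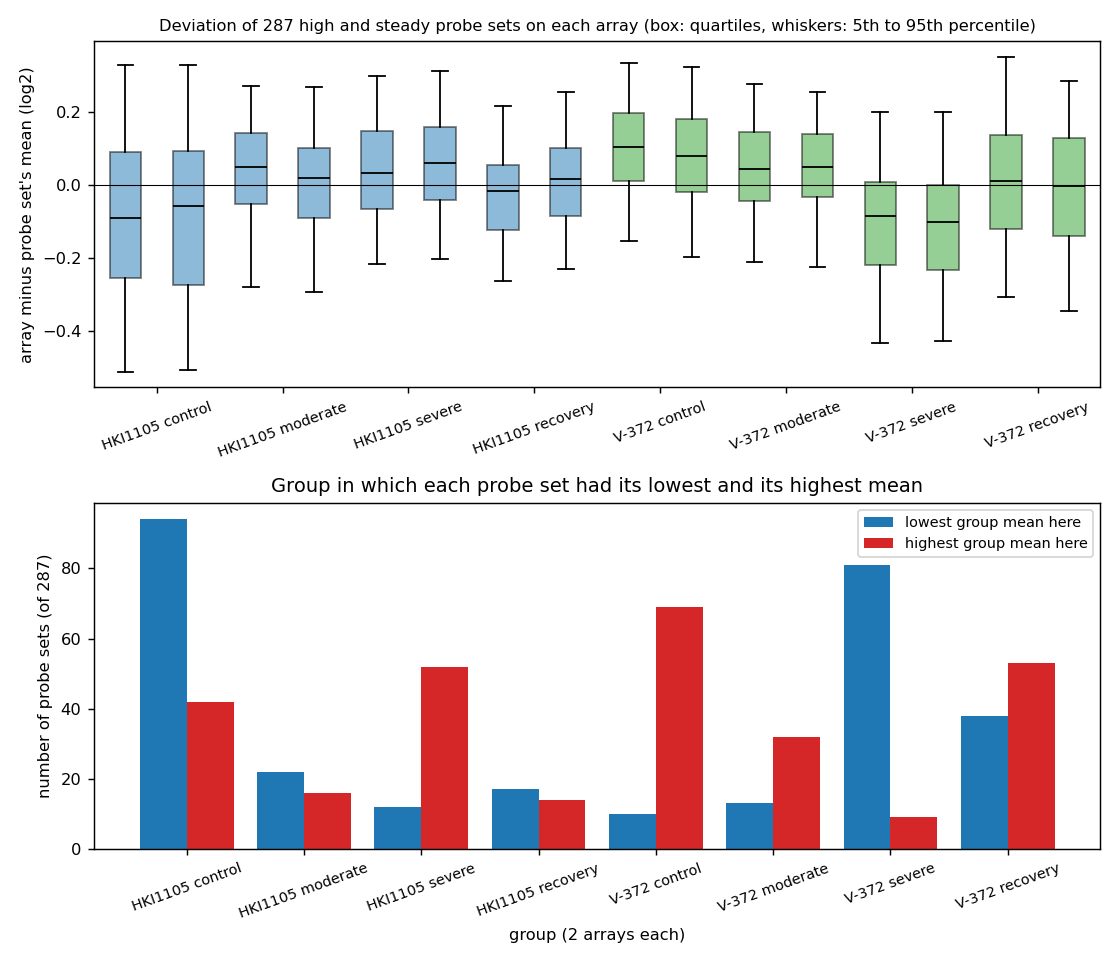
Upper panel, deviation of the 287 high and steady probe sets from their own means (y, log2 units) on each of 16 arrays (x, 2 for each group, HKI1105 blue and V-372 green), with boxes for the quartiles and whiskers for the 5th to 95th percentile. Lower panel, number of the 287 with their lowest (blue) or highest (red) group mean in each group, with 94 lowest in the HKI1105 control and 81 in V-372 severe stress.

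Limma set every stage against the untreated roots of the same line over all 17734 probe sets, at a Benjamini-Hochberg adjusted p under 0.05. In HKI1105 the test called 131 of the 287 higher and 70 lower at moderate stress, beside 26.5% higher and 27.5% lower over all probe sets. At severe stress it called 135 higher and 60 lower (27.1% and 23.2% over all), and at recovery 108 higher and 57 lower (26.8% and 21.2%). In V-372 it called 25 higher and 69 lower at moderate stress (14.0% and 19.1% over all), 15 higher and 162 lower at severe stress (17.5% and 31.7%), and 49 higher and 112 lower at recovery (23.1% and 23.4%). The rule bounds every one of these differences, so nothing is read from the counts. Stages of a line share the same 2 control arrays. In either direction the test called 54.0%, 50.2% and 48.0% of all probe sets in HKI1105 and 33.0%, 49.2% and 46.5% in V-372, from moderate stress to recovery.

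The HKI1105 split depended on the scaling. With arrays centred on their medians the counts became 83 higher and 111 lower at moderate stress, 87 and 117 at severe stress, and 59 and 116 at recovery, so that the lower calls outnumbered the higher ones. With quantile normalisation they were 81 and 120, 81 and 109, and 60 and 109. The V-372 splits kept more lower than higher calls under both. Shares over all probe sets were not worked out under these scalings, so nothing about the 287 is read from these counts. Over the 6 comparisons, 26 of the 287 were called in all (9.06%) and 18 in none (6.27%), beside 11.4% and 26.5% of all probe sets, and the 18 included 2 named probe sets, Zm.348.1.A1_x_at of rpp3 and Zm.3892.2.A1_x_at of elfa3.

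Among the named probe sets the largest differences from control stayed under 0.80 log2 units, and are given as values ± SE of the limma fit (2 arrays against 2). In HKI1105 at moderate stress they were −0.58 ± 0.05 for eif5a, −0.49 ± 0.03 for prf5 and −0.46 ± 0.05 for CNX, against 0.59 ± 0.06 for GRMZM2G327564, 0.59 ± 0.03 for TCTP and 0.56 ± 0.04 for sus1. Other CNX probe sets went both ways there, with group means from 11.35 to 11.74 in Zm.2862.1.A1_a_at and from 13.04 to 12.40 in Zm.2862.2.A1_a_at. At severe stress elfa3 (Zm.3892.2.A1_a_at, −0.49 ± 0.08), prf5 (−0.48 ± 0.03) and eif5a (−0.36 ± 0.05) were lowest, and GRMZM2G327564 (0.69 ± 0.06), thi2 (0.55 ± 0.05) and TCTP (0.53 ± 0.06) highest. The other high and steady elfa3 probe sets differed less, by 0.03 ± 0.07 (Zm.3892.2.A1_x_at), −0.06 ± 0.03 (Zm.3892.6.A1_x_at) and −0.16 ± 0.02 (Zm.3892.11.A1_x_at). TCTP, GRMZM2G327564 and sus1 were thus on the higher side and eif5a and prf5 on the lower side of a control that also had the lowest array medians. At recovery hdt103 differed by −0.54 ± 0.07 and −0.41 ± 0.06 in its 2 high and steady probe sets, and tua4 by −0.42 ± 0.04. Other probe sets of these genes did not all go the same way. From control to recovery the group means of hdt103 went from 10.74 to 11.08 in Zm.856.1.A1_x_at and from 6.27 to 4.56 in Zm.856.2.S1_at. Those of tua4 went from 13.61 to 13.95 in Zm.6045.1.A1_a_at. The 2 high and steady probe sets of GRMZM2G327564 differed by 0.53 ± 0.06 and 0.40 ± 0.04, and TCTP by 0.39 ± 0.03. Other TCTP probe sets did not all go that way in HKI1105. From control to recovery the group means were 8.64, 8.59, 7.65 and 7.94 in Zm.6189.3.S1_at. In Zm.871.2.A1_a_at they were 7.13, 9.28, 8.66 and 7.08.

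In V-372 moderate stress gave the smallest differences, from −0.36 ± 0.05 for CNX, −0.30 ± 0.04 for ANT2 and −0.27 ± 0.04 for nfc102 to 0.27 ± 0.03 for eno1, 0.25 ± 0.05 for ald1 and 0.25 ± 0.07 for eIF-4A. The call of eIF-4A was lost with arrays centred on their medians (limma adjusted p = 0.066) and without V-372 control array 1, moderate array 1 or moderate array 2 (adjusted p = 0.18, 0.105 and 0.111). At severe stress CaM1 differed by −0.74 ± 0.04, ANT2 by −0.63 ± 0.04 and ADF3 by −0.63 ± 0.04. The only 2 named probe sets called higher at that stage were those of nfc102 (0.18 ± 0.04) and asr1 (0.13 ± 0.04), and the second turned to −0.043 with quantile normalisation. The call of asr1 was also lost with median centring (limma adjusted p = 0.070), with a filter on low probe sets (0.094), and without V-372 control array 1, control array 2 or severe array 1 (0.094, 0.106 and 0.176). At recovery CNX differed by −0.80 ± 0.05, ATP2 by −0.51 ± 0.04 and RPL27A by −0.50 ± 0.06. The 2 high and steady probe sets of ubc7 differed by 0.67 ± 0.08 and 0.65 ± 0.05, and hsp70-5 by 0.53 ± 0.05. Genes of folding and turnover thus stood at both ends of V-372 recovery.

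The change from control was also set against the other line, as the HKI1105 change minus the V-372 change. This difference passed a limma adjusted p of 0.05 in either direction for 165 of the 287 at moderate stress, 210 at severe stress and 168 at recovery, beside 48.7%, 55.0% and 47.9% of all probe sets. The rule bounds these differences too, and nothing is read from the counts. For CaM1 the difference at severe stress was 1.18 ± 0.06 (SE), with HKI1105 arrays at 13.51 and 13.47 and V-372 arrays at 12.63 and 12.62.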

How the data were processed

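Root RNA of 16 samples was hybridised to Affymetrix Maize Genome Arrays, and scans were made with the maker's operating software. The authors normalised the arrays together by GCRMA and deposited log2 signals, whose version and settings are not given in the sources used here. GCRMA subtracts a background that depends on probe sequence and equalises the distribution of probe intensities between arrays, so a shift shared by most probe sets would be lost. All per-sample columns were used (0 left out). The table has no columns of the authors' own comparisons.

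Probe sets were chosen by the 2 limits in every array. The members and gene lists were chosen with earlier results of these data known. Genes came from the platform annotation (1452 non-AFFX probe sets with a single gene, 1 with several, 16168 unnamed), updated through RefSeq (1377 found, assembly Zm-B73-REFERENCE-NAM-5.0). The files name no genome build, so no coordinates are given. The 21 lists were matched by symbol and synonym alone, so they are not complete, and 45 wrong matches were taken out; 1 list, of GF14 regulatory proteins, matched none. Named genes were the 10 highest, the 10 with the smallest and the 10 with the largest range, up to 8 of each list, the 3 largest called changes in each direction, the 3 nearest to each limit, and other probe sets of the reference list and the maize controls.

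Stages were compared with limma 3.58.1 in R 4.3.3 (1 mean for each of 8 groups, residual df 8, empirical Bayes, Benjamini-Hochberg over 17734 probe sets), tested on simulated data. The number of arrays limits the precision. Alternatives were other limits, group means, median centring, quantile normalisation, a filter on low probe sets, a replicate block and leaving out each array.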

Additional observations from a re-analysis of the deposited data

Results flagged for a closer look

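The limma difference between the 2 lines in the change from control (HKI1105 change minus V-372 change, log2 units) passed an adjusted p of 0.05 and was 0.5 or more in size for the named probe sets given here. Each change is bounded by the range limit, all stages of a line share 2 control arrays, and the HKI1105 control had the lowest array medians. They are given as values, with no explanation tested.

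At moderate stress the differences were 0.63 for thi2, 0.51 for sus1, 0.55 for nfc102, 0.56 for TCTP (Zm.6189.1.A1_a_at), 0.55 for GRMZM2G327564 (Zm.6748.1.A1_at), 0.52 for ANT2, −0.53 for CaM2 and 0.68 for ATP2. At severe stress they were 0.55 for thi2, 0.57 for ADF3 (Zm.2992.1.A1_x_at), 1.18 ± 0.06 (SE) for CaM1, 0.87 for sus1, 0.59 for eIF-4A and 0.66 for rps6-2. They were 0.75 and 0.77 for the 2 high and steady probe sets of TCTP, 0.60 and 0.74 for those of GRMZM2G327564, 0.78 for ANT2 and 0.72 for ATP2. At recovery they were −0.77 for ubc7 (Zm.16785.1.A1_a_at), 0.70 for CNX, 0.50 for CaM1, 0.72 for sus1, 0.67 for GRMZM2G327564 (Zm.6748.1.A1_at), 0.51 for ANT2 and 0.87 for ATP2.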

How the results depend on the processing

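With a lowest level of 11 the number of high and steady probe sets was 538, with 13 it was 129, and with a largest range of 0.5 it was 70. Named probe sets on at least 1 list came to 22 with a level of 13 and to 14 with a range of 0.5, where 5 lists kept a member. Quantile normalisation gave 310 probe sets, 272 of them shared, and median centring 297, 269 of them shared.

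For HKI1105 the counts called higher at moderate stress, severe stress and recovery were 81, 81 and 60 with quantile normalisation and 83, 87 and 59 with median centring, and those called lower 120, 109 and 109, and 111, 117 and 116. Leaving out 1 array gave 287 to 298 probe sets. It gave counts called higher and lower of 110 to 129 and 62 to 70 (HKI1105 moderate), 113 to 139 and 49 to 61 (severe), 82 to 109 and 50 to 59 (recovery), 18 to 26 and 40 to 70 (V-372 moderate), 13 to 16 and 136 to 165 (severe), and 41 to 52 and 97 to 116 (recovery). The 40 came without V-372 control array 1 and 41 without V-372 moderate array 2. Shares over all probe sets were not worked out for these alternatives or for the replicate block below. Nothing about the 287 is read from these counts.

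With a replicate block the counts were 129 and 69, 134 and 60, and 104 and 56 for HKI1105, and 23 and 67, 15 and 160, and 48 and 110 for V-372, so the block moved none by 1.5 times. Replicate numbers did not pair the arrays: the deviations of same-numbered arrays correlated at −0.16 to 0.20 over 28 pairs of groups, over 0.1 in 2. At V-372 severe stress the difference of asr1 turned to −0.043 with quantile normalisation. The cause of these shifts was not tested.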
